A study of Mus musculus with 8 samples.

Results

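The heat-shock chaperones are proteins that hold, refold or hand on other proteins, and 10 of their genes were followed here, of 27998 genes listed in single-cell RNA-seq of the mouse left ventricle. They were taken by symbol: the inducible HSP70 genes *Hspa1a* and *Hspa1b*, their partners *Dnajb1* and *Hsph1*, the inducible HSP90 gene *Hsp90aa1*, the small heat-shock protein gene *Hspb1*, the mitochondrial chaperonin genes *Hspe1* and *Hspd1*, and the constitutive HSP70 and HSP90 genes *Hspa8* and *Hsp90ab1*. These genes were selected on earlier results of the same data, so their differences between sham and ischemia–reperfusion (IR) are given as a description and carry no test.

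The hearts came from male C57BL/6 mice. In the IR group the left anterior descending artery was tied and then released, and in the sham group the chest was opened without tying it. Left ventricular cells were taken 6 h after surgery and digested at 37 °C, and 3 hearts were pooled into a sample. The sham samples carry the label 0 h, although both the paper and the extract protocol describe sampling at 6 h for sham hearts as well. Each condition has 4 sample records but a single matrix whose barcodes name no sample, so there is 1 library a condition, and replicates could not be compared. The intervals below are 95% exact intervals, and they cover counting error only.

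In an unstressed cell, heat-shock factor 1 is held inactive by chaperones. Misfolded proteins draw these chaperones away, and the freed factor binds heat-shock elements, repeats of the letters NGAAN in alternating orientation, at inducible genes such as *Hspa1a*, *Hspa1b*, *Dnajb1* and *Hsp90aa1*. *Hspa8* and *Hsp90ab1* are made in nearly all cells without stress. In the heart, ischemia and reperfusion are known inducers of HSP70, and warm enzymatic digestion of tissue is known to induce heat-shock and immediate-early genes in isolated cells.

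The promoter letters were read in 7 of the members, to show which of them hold a simple form of the element. How far the inducible genes share it cannot be told from them, since the inducible *Hsp90aa1* was not among the 7. The RefSeq table of promoters (GRCm38.p6, the 250 bases before the start of transcription) holds 10 starts for 7 of the 10 members, and it has no entry for *Hsp90aa1*, *Hsp90ab1* and *Hspa8*. The element was searched as a head-to-head or tail-to-tail pair of repeats, GAANNTTC or TTCNNGAA, each of which reads the same on both strands. A match was present in 12.8% of all 32851 promoters of this length, and in 7 of the 10 starts of the members. These 7 starts are not separate observations, since both starts of *Hsph1* hold the same site. *Hspe1* and *Hspd1* also share a stretch, and the *Hspa1a* and *Hspa1b* promoters are near-identical. The following runs are written 5′ to 3′ on the strand of the gene, with the matches in capitals.
Hspa1a, chr17:34972157-34972406, minus strand: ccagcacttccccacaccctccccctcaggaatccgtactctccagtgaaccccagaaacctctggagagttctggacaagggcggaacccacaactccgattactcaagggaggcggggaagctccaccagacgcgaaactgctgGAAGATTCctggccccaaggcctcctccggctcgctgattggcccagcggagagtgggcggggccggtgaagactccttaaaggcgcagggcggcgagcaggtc
Hspa1b, chr17:34959239-34959488, minus strand: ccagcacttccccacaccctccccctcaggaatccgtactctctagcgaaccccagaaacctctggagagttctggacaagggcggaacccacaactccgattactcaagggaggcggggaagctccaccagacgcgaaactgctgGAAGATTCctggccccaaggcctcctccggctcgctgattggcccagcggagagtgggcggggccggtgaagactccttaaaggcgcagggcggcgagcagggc
Hsph1, chr5:149636337-149636586, minus strand: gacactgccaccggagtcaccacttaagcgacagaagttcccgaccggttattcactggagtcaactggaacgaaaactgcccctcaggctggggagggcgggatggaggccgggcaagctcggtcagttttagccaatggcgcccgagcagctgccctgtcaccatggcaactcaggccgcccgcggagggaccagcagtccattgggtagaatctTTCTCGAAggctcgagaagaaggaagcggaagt
Hspb1, chr5:135887669-135887918, plus strand: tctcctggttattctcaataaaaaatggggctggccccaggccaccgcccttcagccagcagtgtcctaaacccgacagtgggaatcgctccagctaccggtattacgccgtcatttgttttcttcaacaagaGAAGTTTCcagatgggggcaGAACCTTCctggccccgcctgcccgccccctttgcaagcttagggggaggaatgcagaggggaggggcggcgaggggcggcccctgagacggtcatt
Hspe1, chr1:55087898-55088147, plus strand: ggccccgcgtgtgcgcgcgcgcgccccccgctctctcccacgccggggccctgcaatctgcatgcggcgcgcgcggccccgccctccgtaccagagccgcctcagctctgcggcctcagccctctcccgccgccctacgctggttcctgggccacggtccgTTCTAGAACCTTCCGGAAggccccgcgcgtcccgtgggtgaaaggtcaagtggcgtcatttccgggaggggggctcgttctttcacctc
Hspd1, chr1:55087933-55088182, minus strand: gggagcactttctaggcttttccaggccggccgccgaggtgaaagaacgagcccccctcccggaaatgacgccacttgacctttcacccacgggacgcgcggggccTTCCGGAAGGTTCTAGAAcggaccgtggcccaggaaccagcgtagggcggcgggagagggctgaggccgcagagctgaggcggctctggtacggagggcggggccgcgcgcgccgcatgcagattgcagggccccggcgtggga
The *Hspa1a* and *Hspa1b* promoters had the same base at 247 of 250 positions (98.8%), and each held 1 match. *Hspb1* held 2 matches, a number reached by 1.46% of all promoters. *Hspe1* and *Hspd1* start next to each other on opposite strands, and the same 18-base stretch with 3 overlapping matches was read in both, against 0.140% of all promoters with 3. Both starts of *Hsph1* held the same 1 match, and a single run is written for them. Both starts of *Dnajb1* and the second start of *Hspd1* held none of these letters, which says nothing about binding there.

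*Hspa1a* (chr17:34969190-34972156) and *Hspa1b* (chr17:34956436-34959238) are near-identical genes on the minus strand of GRCm38, separated by 9951 bases. Of the 91-base windows of their transcripts, 49.1% of those of *Hspa1a* and 52.0% of those of *Hspa1b* also occurred in the other, but 0 of the 410 windows in the last 500 bases of either did. The library kit reads the 3′ ends of transcripts, where the pair differs, so both are reported, with the reservation that reads from the shared part could not be placed. *Hspa1a* also overlaps Gm20481 on the other strand, and *Hspe1* and *Hspd1* overlap each other at their starts on opposite strands.

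The sham library had 11620 barcodes (median 4599.5 UMIs, that is, captured RNA molecules) and the IR library 8539 (median 6244), with 30 barcodes found in both. Cells with 200 to 2500 genes and at most 30% mitochondrial UMIs came to 84.1% of sham and 57.1% of IR barcodes. Without the upper limit on genes, 97.9% of sham and 96.7% of IR barcodes passed. The paper names the same limits but reports more cells kept in each library than passed them here, and the reason was not tested. The cells inside the limits are therefore not the same set as the paper's. Cells were grouped by clusters made without the chaperone genes and named "-like" from marker genes, and 8 classes with at least 50 cells in each library were compared: macrophage/monocyte (3069 sham and 811 IR cells), neutrophil (246 and 2378), B cell (1092 and 735), T cell (478 and 291), NK cell (255 and 77), fibroblast (2961 and 228), endothelial (296 and 70) and mural (813 and 127). Cardiomyocyte-like cells, although the tissue is ventricle, numbered only 39 in sham and 50 in IR and were not compared. The mitochondrial share was higher in IR in each of these classes, from 3.02% to 6.33% in macrophage/monocyte-like cells and from 3.57% to 7.91% in fibroblast-like cells. Its part in the results was not tested.

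Levels are in CPM, the UMIs of a gene in a class divided by all UMIs of the class and multiplied by 1000000, without a correction for transcript length. The heat map of levels gives every member in every class and library.

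**Figure D1:**
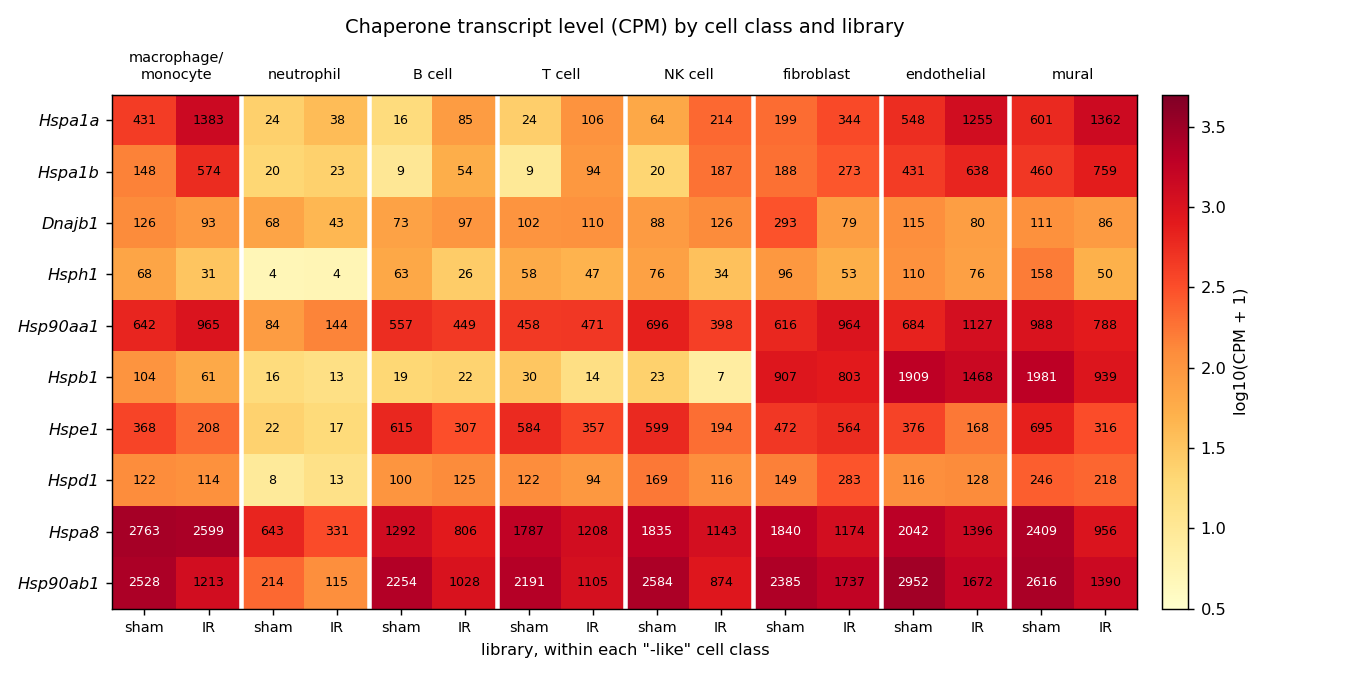
Level of each chaperone gene (rows) in each cell class and library (columns), as CPM printed in the cell and as log10(CPM + 1) in color. Hspa8 and Hsp90ab1 were above 800 CPM in all classes but the neutrophil-like one, and the Hspa1a and Hspa1b rows were darker in IR than in sham.

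The inducible HSP70 genes were higher in IR than in sham in 7 of 8 classes, and in the neutrophil-like class the interval held 0. HSP70 binds unfolded stretches of protein, and *Hspa1a* and *Hspa1b* encode nearly the same HSP70. In macrophage/monocyte-like cells *Hspa1a* had 431 CPM in sham (6474 UMIs, interval 420 to 441) and 1383 CPM in IR (6638 UMIs, interval 1350 to 1417), which is 3.21-fold higher in IR. *Hspa1b* had 148 CPM in sham and 574 CPM in IR in the same class, 3.87-fold higher. These 2 were the only members at least 2-fold higher in IR there, where 9.85% of 10824 genes with at least 25 UMIs were past that fold.

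The classes of the vessel wall had the highest *Hspa1a* levels in sham. Mural-like cells had 601 CPM in sham and 1362 CPM in IR (2.27-fold), and endothelial-like cells 548 and 1255 CPM (2.29-fold). In fibroblast-like cells *Hspa1a* was at 199 CPM in sham and 344 CPM in IR, a smaller ratio of 1.73-fold. *Hspa1a* was thus past 2-fold in mural-like cells (background 7.66%) and endothelial-like cells (7.74%), while no member was past it in fibroblast-like cells, where 13.2% of genes were. This order held only with the upper limit on genes. Without it the log2 ratio of *Hspa1a* was 1.27 in fibroblast-like, 1.51 in endothelial-like and 0.55 in mural-like cells.

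*Hspa1b* was less far apart in the stromal classes, at 460 and 759 CPM in mural-like cells, 431 and 638 CPM in endothelial-like cells and 188 and 273 CPM in fibroblast-like cells, and in none of them did it reach 2-fold. Without the upper limit on genes its log2 ratio was 1.01 in endothelial-like and −0.05 in mural-like cells.

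The lymphocyte-like classes had lower levels than the stromal and macrophage/monocyte-like ones. *Hspa1a* was at 16.1 CPM in sham and 85.4 CPM in IR in B cell-like cells (5.30-fold), at 24.4 and 106 CPM in T cell-like cells (4.34-fold), and at 63.6 and 214 CPM in NK cell-like cells (log2 ratio 1.75). *Hspa1b* rested on few UMIs in sham, 14 in T cell-like and 17 in NK cell-like cells, against 149 and 55 in IR. Its log2 ratios were 2.55 in B cell-like, 3.46 in T cell-like and 3.20 in NK cell-like cells. The IR levels of *Hspa1a* and *Hspa1b* rested on few cells. With all cells thinned to the same number of UMIs, 93.5% of IR B cell-like cells had no UMI of either gene (sham 98.5%). The share was 89.2% in IR T cell-like (sham 97.9%) and 90.7% in IR NK cell-like cells (sham 96%). The highest IR NK cell-like cell had 28 such UMIs, against a mean of 0.6 over 75 cells. Both genes were past 2-fold in all 3 classes, against backgrounds of 5.19% in B cell-like, 4.54% in T cell-like and 13.2% in NK cell-like cells.

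Macrophage markers were read beside these lymphocyte values, since free RNA or a second cell in a droplet can bring in another type's UMIs. The 12 macrophage/monocyte markers summed to 326 CPM in sham and 159 CPM in IR in B cell-like cells, to 848 and 161 CPM in T cell-like cells, and to 979 and 575 CPM in NK cell-like cells. These sums were lower in IR than in sham. They were not set beside the sums of the same markers in macrophage/monocyte-like cells. The amount of macrophage RNA in each library therefore cannot be told from them. The 10 endothelial markers summed to 152 and 175 CPM in B cell-like, 133 and 136 CPM in T cell-like and 62.4 and 81.6 CPM in NK cell-like cells, and the 10 mural markers to 74.9 and 36.9, 126 and 29.0, and 137 and 54.4 CPM. The part of RNA from other cells in the lymphocyte values was not tested. In sham, the lymphocyte-like cells with an *Hspa1a* or *Hspa1b* UMI had much more macrophage-marker RNA than those without, 5006 against 517 CPM in T cell-like and 3405 against 168 CPM in B cell-like cells. In IR T cell-like cells the same values were 174 and 157 CPM, and in IR B cell-like cells 355 and 109 CPM. In IR NK cell-like cells with such a UMI, 14 cells in all, 8 of the 12 markers were at 0.

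The same data can be given as HSP70 UMIs for each macrophage-marker UMI. There were 0.210 in IR macrophage/monocyte-like cells, and 0.878, 1.24 and 0.698 in IR B cell-like, T cell-like and NK cell-like cells. In sham the ratio was 0.0240 in macrophage/monocyte-like and 0.0775 in B cell-like cells. For sham T cell-like and NK cell-like cells, the summed HSP70 levels were 32.9 and 84.0 CPM, to be read beside the marker sums above. The ratio was taken for macrophage markers only, although mural-like and endothelial-like cells also had high HSP70 levels. The source of the HSP70 UMIs was not tested.

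Neutrophil-like cells stood apart with low levels in both libraries. *Hspa1a* was at 24.1 CPM in sham and 38.2 CPM in IR (log2 ratio 0.67, interval −0.15 to 1.63), and *Hspa1b* at 20.0 and 23.0 CPM. Sham neutrophil-like cells gave only 12 and 10 UMIs of these genes, so a difference of this size was not detectable at this depth. No member was at least 2-fold higher in IR in this class (background 12.1%) and none was at least 2-fold lower (17.4%).

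The order of classes changed at its top. In sham, *Hspa1a* was highest in mural-like and endothelial-like cells, whose intervals overlapped, followed by macrophage/monocyte-like, fibroblast-like and NK cell-like cells, with the T cell-like, neutrophil-like and B cell-like values overlapping at the bottom. In IR, macrophage/monocyte-like cells stood level with mural-like and endothelial-like cells, at 1383, 1362 and 1255 CPM with neighbors overlapping. The highest class was 37.3-fold above the lowest in sham and 36.2-fold in IR.

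The pair did not keep the same proportions in all classes. *Hspa1a* gave 74.4% of the UMIs of the pair in sham macrophage/monocyte-like cells and 70.7% in IR, but 51.4% and 55.7% in fibroblast-like cells. In T cell-like cells the share was 74.1% in sham and 53.0% in IR.

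The partners of HSP70 were mostly not higher alongside it. *Dnajb1* encodes a J-domain protein that delivers clients to HSP70 and triggers its ATPase. It was at 293 CPM in sham fibroblast-like cells, its highest level, and at 78.6 CPM in IR, 3.73-fold lower, which made it the single member past 2-fold lower in that class, against a background of 18.0%. In macrophage/monocyte-like cells it was at 126 CPM in sham and 93.3 CPM in IR, and in B cell-like cells at 73.3 and 97.0 CPM. Its interval held 0 in 4 classes, was below 0 in 3 and above it in 1.

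*Hsph1* encodes HSP110, which exchanges the nucleotide on HSP70. It was lower in IR in 5 classes, with an interval that held 0 in the other 3. Mural-like cells had 158 CPM in sham and 50.3 CPM in IR (3.15-fold lower), and macrophage/monocyte-like cells 67.6 and 31.3 CPM. B cell-like and NK cell-like cells were also past 2-fold, with log2 ratios of −1.27 and −1.15.

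*Hsp90aa1*, the stress-inducible HSP90 of the cytosol, differed in direction between classes. It was higher in IR in macrophage/monocyte-like cells (642 CPM in sham and 965 CPM in IR, log2 ratio 0.59), endothelial-like cells (684 and 1127 CPM, 0.72), fibroblast-like cells (616 and 964 CPM, 0.65) and neutrophil-like cells (84.2 and 144 CPM, 0.77). It was lower in NK cell-like cells (696 and 398 CPM, −0.81), B cell-like cells (557 and 449 CPM, −0.31) and mural-like cells (988 and 788 CPM, −0.33). In T cell-like cells it was at 458 and 471 CPM with an interval that held 0. No class reached 2-fold, and the difference between classes was not tested. With classes set by each cell's own marker UMIs the neutrophil-like ratio was −0.20.

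*Hspb1* encodes HSP27, a small heat-shock protein that holds unfolding proteins and binds the actin cytoskeleton. It was mainly a stromal transcript: in sham it had 1981 CPM in mural-like, 1909 CPM in endothelial-like and 907 CPM in fibroblast-like cells, against 104 CPM in macrophage/monocyte-like cells and under 30 CPM in neutrophil-like and lymphocyte-like cells. The highest class was 124-fold above the lowest in sham, the widest range of any member. In IR it had 939 CPM in mural-like cells (log2 ratio −1.08, and −0.18 without the upper limit on genes), 1468 CPM in endothelial-like cells (−0.38) and 803 CPM in fibroblast-like cells (−0.18). It had 2 UMIs in IR NK cell-like cells and 19 in sham, under the minimum of 25 for a ratio.

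*Hspe1* and *Hspd1* encode HSP10 and HSP60, which together form the folding chamber of the mitochondrial matrix and share a promoter region. *Hspe1* was lower in IR in 6 classes, from 695 to 316 CPM in mural-like, from 615 to 307 CPM in B cell-like, from 599 to 194 CPM in NK cell-like and from 368 to 208 CPM in macrophage/monocyte-like cells. *Hspd1* followed it less: its interval was below 0 in 1 class, above it in 2 and held 0 in 5. It was at 122 and 114 CPM in macrophage/monocyte-like cells and at 246 and 218 CPM in mural-like cells. B cell-like cells had 100.3 and 125 CPM. T cell-like cells had 122 and 93.9 CPM (log2 ratio −0.38), and NK cell-like cells 169 and 116 CPM (interval held 0). In fibroblast-like cells both were higher in IR, *Hspd1* at 149 and 283 CPM (1.90-fold) and *Hspe1* at 472 and 564 CPM (log2 ratio 0.26).

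The constitutive genes were lower in IR in all 8 classes. *Hspa8* encodes HSC70, which works in folding, in the uncoating of clathrin vesicles and in chaperone-mediated autophagy. Its difference was smallest in macrophage/monocyte-like cells, at 2763 CPM in sham and 2599 CPM in IR (log2 ratio −0.09, interval −0.12 to −0.06), and largest in mural-like cells, at 2409 and 956 CPM (2.52-fold lower). Neutrophil-like cells had 643 and 331 CPM and fibroblast-like cells 1839.9 and 1174 CPM.

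*Hsp90ab1* encodes the constitutive HSP90 of the cytosol, which keeps kinases and steroid receptors foldable. It was at 2528 CPM in sham and 1213 CPM in IR in macrophage/monocyte-like cells (2.08-fold lower), at 2254 and 1028 CPM in B cell-like cells and at 2584 and 874 CPM in NK cell-like cells (2.96-fold lower). Fibroblast-like cells had the smallest difference, 2385 and 1737 CPM (log2 ratio −0.46). The 2 HSP90 genes thus moved apart in macrophage/monocyte-like, neutrophil-like, fibroblast-like and endothelial-like cells, with *Hsp90aa1* higher and *Hsp90ab1* lower in IR.

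Members at least 2-fold lower in IR were 2 of 10 in macrophage/monocyte-like cells (*Hsph1* and *Hsp90ab1*, background 11.1%), 3 of 10 in B cell-like cells (*Hsph1*, *Hspe1* and *Hsp90ab1*, background 4.15%), 1 of 10 in T cell-like cells (*Hspb1*, background 4.86%), 3 of the 9 with enough UMIs in NK cell-like cells (*Hsph1*, *Hspe1* and *Hsp90ab1*, background 8.51%), 1 of 10 in endothelial-like cells (*Hspe1*, background 14.2%) and 4 of 10 in mural-like cells (*Hsph1*, *Hspb1*, *Hspe1* and *Hspa8*, background 10.2%). Since the members were chosen on this contrast, nothing is read from these counts, and genes with few UMIs pass 2-fold more easily by counting error. When cells were put in classes by their own marker UMIs instead of by cluster, no member was 2-fold lower in macrophage/monocyte-like cells. The median log2 ratio of the members was −0.27 in macrophage/monocyte-like cells and −0.64 in mural-like cells, beside −0.00 and 0.01 for all genes tested. For all genes it lay within 0.1 of 0 except in neutrophil-like (−0.15) and NK cell-like cells (0.16), so values in these classes are to be read against that shift.

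**Figure D2:**
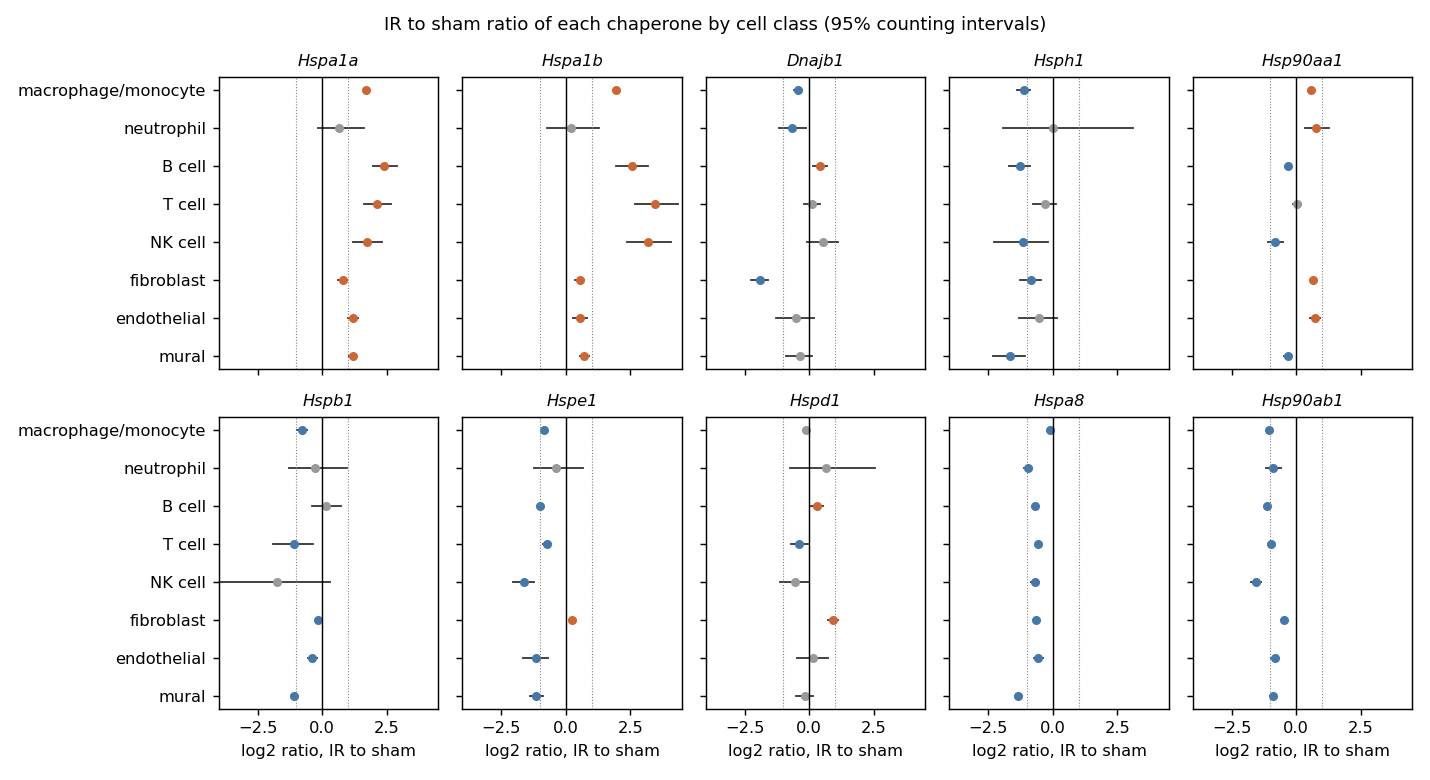
Log2 ratio of IR to sham (x axis) of each chaperone gene in 8 cell classes (y axis), with 95% counting intervals as bars, 2-fold as dotted lines, and gray points where the interval holds 0. Hspa1a and Hspa1b lie right of 0 in all classes, Hspa8 and Hsp90ab1 left of 0 in all classes, and Hsp90aa1 on both sides.

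The sum of the members hid these shifts. In macrophage/monocyte-like cells they summed to 7301 CPM in sham and 7241 CPM in IR, whereas in mural-like cells they summed to 10264 and 6864 CPM.

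Some classes were made of different clusters in the 2 libraries, which bears on the ratios above. Of fibroblast-like cells, 2955 sham and 83 IR cells were in cluster 0, while 145 of the IR cells and 6 sham cells were in cluster 16, led by *Cxcl5*, *Ptx3*, *Prg4* and *Mt2*. Of the macrophage/monocyte-like clusters, cluster 3 was almost all sham (1197 cells against 5) and cluster 11 mostly IR (36 against 349). B cell-like cells were split likewise between cluster 4 (1057 and 64) and cluster 6 (35 and 671). Of neutrophil-like cells, 175 sham and 8 IR cells were in cluster 15, led by *Gm13822*, *Slfn4*, *Rsad2* and *Ifit1*. Cluster 2 held 13 sham and 1565 IR neutrophil-like cells, and cluster 5 held 58 and 805.

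Ratios were therefore also taken within the 10 clusters that held at least 50 cells of each library. They cover all cells of a cluster. The macrophage/monocyte-like clusters thus include cells of subclusters led by another class, which were left out of the class values. *Hspa1a* was at least 2-fold higher in IR in all 10, with log2 ratios of 1.196 to 3.26, and *Hsp90ab1* was lower in all 10. In the neutrophil cluster, cluster 5, the *Hspa1a* ratio rests on 1 sham UMI. *Hspa8* was lower in 9 and higher in 1, the macrophage/monocyte-like cluster 9, at 2554 CPM in sham and 2925 CPM in IR. In the macrophage/monocyte-like cluster 1 *Hspa1a* was at 348 CPM in sham (1749 cells) and 3346 CPM in IR (158 cells). *Hspa1b* was at 144 and 1299.6 CPM there. *Dnajb1* was higher in this cluster too, at 139.6 and 229.9 CPM, although it was lower in the whole class, which lacks the left-out cells. *Hsp90aa1* was at 792 and 1473 CPM and *Hsp90ab1* at 3155 and 1209 CPM in this cluster.

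In the fibroblast-like class the within-cluster values differed in direction from the class values for 3 members. In cluster 0 *Hsp90aa1* was at 614 CPM in sham and 587 CPM in IR (interval held 0), *Hspd1* at 149 and 104 CPM (log2 ratio −0.51) and *Hspe1* at 471 and 306 CPM (−0.62). The higher class values of these genes in IR came with cluster 16, whose IR cells had 1141 CPM of *Hsp90aa1*, 367 CPM of *Hspd1* and 685 CPM of *Hspe1*. *Hspa1a* went the other way: it was at 537 CPM in the IR cells of cluster 0 (log2 ratio 1.43) and at 253 CPM in those of cluster 16. *Dnajb1* was at 161 CPM in the IR cells of cluster 0 and at 39.97 CPM in those of cluster 16.

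The macrophage/monocyte-like cells were divided further, and the subclusters hardly overlapped between libraries. In sham, *Hspa1a* was at 688 CPM in subcluster 0 (983 cells with an interferon signature), at 333 CPM in MHCII macrophages (920 cells), at 353 CPM in Lyve1 macrophages (684 cells) and at 49.9 CPM in Ly6c2 monocytes (224 cells). *Hsp90aa1* and *Hsp90ab1* had another order in sham, with 833 and 3176 CPM in MHCII macrophages, 762 and 3182 CPM in Lyve1 macrophages, and 529.9 and 1957 CPM in the interferon-signature subcluster. In IR the levels of 2 large subclusters differed: subcluster 3, led by *Lpl* and *Gdf15* (383 cells), had 2343 CPM of *Hspa1a*, 1004 CPM of *Hspa1b* and 1451 CPM of *Hsp90aa1*, whereas recruited monocyte-derived macrophages (341 cells) had 292, 100.3 and 448 CPM. Nonclassical monocytes in IR (66 cells) had 364 CPM of *Hspa1a*. *Hspa8* varied less, between 2054 CPM (Lyve1 macrophages of subcluster 7, sham) and 3275 CPM (Lyve1 macrophages of subcluster 2, sham).

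Immediate-early genes, which digestion can also raise, summed to 30047 CPM in subcluster 3 in IR and to 20469 CPM in recruited macrophages in IR, and in sham to 27636 CPM in the interferon-signature subcluster and 35957 CPM in MHCII macrophages. Subcluster 3 carried no subset name. Without the upper limit on genes, a subcluster of 862 IR and 22 sham cells, also led by *Lpl* and with *Gdf15*, *Cd163* and *Mrc1* among its leading genes, was named Lyve1 macrophage from its markers, and its IR cells had 1999 CPM of *Hspa1a*. Subcluster 3 held 17 sham cells with 563 CPM of *Hspa1a*, and the Lyve1 subcluster 2 held 13 IR cells with 3468 CPM.

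**Figure D3:**
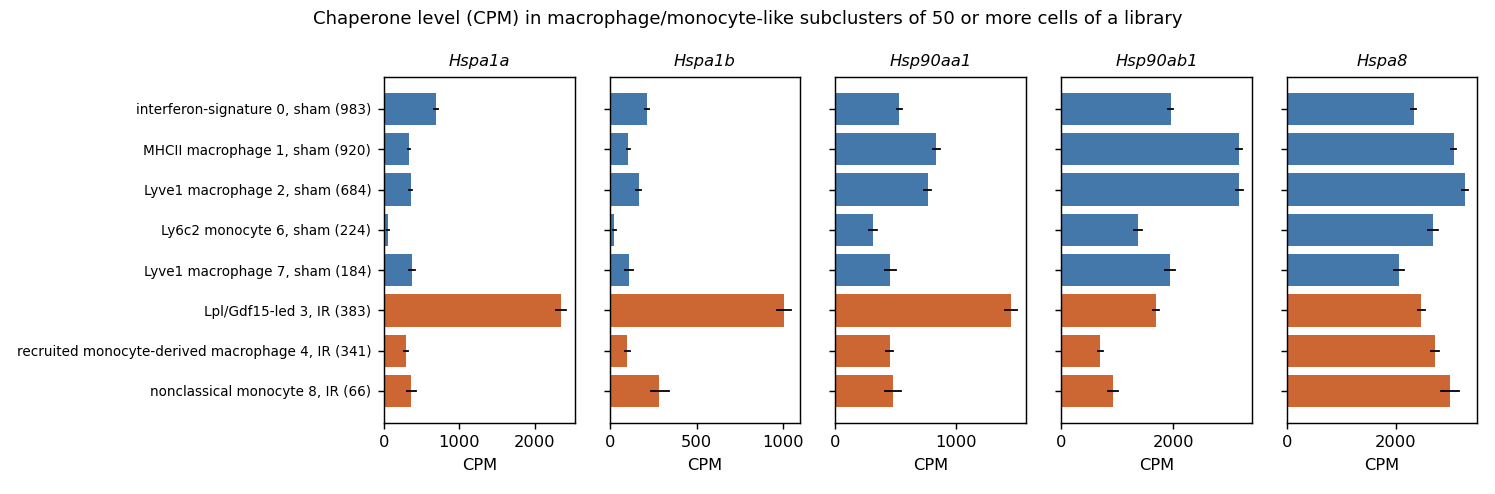
Level in CPM (x axes) of 5 chaperone genes in macrophage/monocyte-like subclusters with at least 50 cells of the library, sham in blue and IR in orange, with 95% counting intervals and cell numbers in parentheses. The Lpl/Gdf15-led IR subcluster has the longest Hspa1a, Hspa1b and Hsp90aa1 bars, and Ly6c2 monocytes have the shortest Hspa1a bar.

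Over all macrophage/monocyte-like cells, the difference lay in the number of molecules in some cells more than in the share of cells with any. After thinning each cell to 1000 UMIs, which left out 25 sham and 39 IR cells, 31.6% of 3044 sham cells and 37.6% of 772 IR cells had an *Hspa1a* or *Hspa1b* UMI (59.8% and 56.8% without thinning). Cells with 5 or more such UMIs were 2.07% in sham (63 cells) and 14.8% in IR (114 cells), and cells with 10 or more were 5 and 55. Subclusters differed in IR: subcluster 3 had 166 cells with none, 116 with 1 to 4 and 92 with 5 or more. Recruited monocyte-derived macrophages had 256, 45 and 11, and the part of this mix in the class shares was not tested. The IR cells with 5 or more held 79.1% of all *Hspa1a* and *Hspa1b* UMIs of the thinned IR cells, and the sham ones 22.0% of theirs. The mean was 0.601 UMIs a cell in sham and 2.21 in IR, and the ratio of variance to mean 2.57 and 11.9. For the constitutive pair *Hspa8* and *Hsp90ab1* that ratio was 1.73 and 2.38.

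The stromal classes were read in the same way. In mural-like cells the share with an HSP70 UMI was 47.9% in sham and 34.6% in IR, but the share with 5 or more was 6.09% and 16.8%. In endothelial-like cells these shares were 40.0% and 37.9% for any UMI, and 3.02% and 15.2% for 5 or more. Fibroblast-like cells had 26.0% and 29.5% for any UMI and 0.651% and 1.82% for 5 or more. The neutrophil-like class had 4.31% and 5.05% of cells with any such UMI at the same depth. B cell-like cells had 1.49% in sham and 6.54% in IR, and T cell-like cells 2.11% and 10.8%. The part of free RNA in these shares was not tested.

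**Figure D4:**
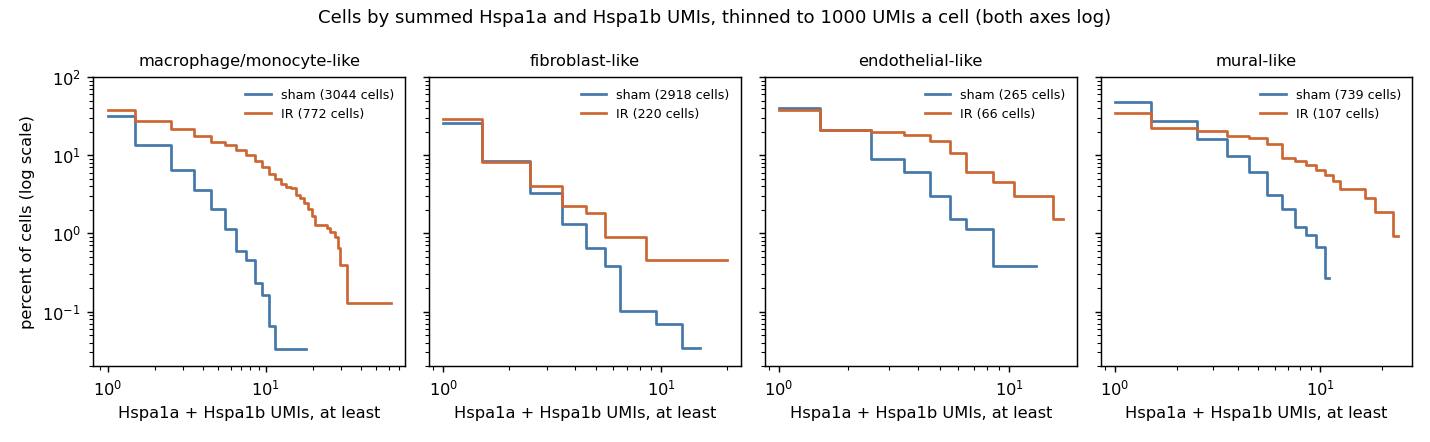
Percent of cells (y axis, log scale) with at least the number of Hspa1a and Hspa1b UMIs on the x axis (log scale), in 4 cell classes thinned to 1000 UMIs, for sham (blue) and IR (orange). At 5 or more UMIs the IR line is above the sham line in each class, and in macrophage/monocyte-like cells the highest cell had 18 UMIs in sham and 62 in IR.

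The other chaperones were read in the same thinned macrophage/monocyte-like cells by their HSP70 UMIs. The bins are ranges of a count and not cell types: 138 IR cells had at least 4 such UMIs, 114 at least 5 and 103 at least 6. In IR, *Hsp90aa1* was at 0.539 UMIs a cell in the 482 cells with none, at 1.16 in the 176 cells with 1 to 4, and at 3.19 in the 114 cells with 5 or more, which is 5.92-fold above the cells with none (interval 5.03 to 6.97). In sham, *Hsp90aa1* was at 0.632 UMIs a cell with none and 0.714 with 5 or more (1.13-fold, interval 0.821 to 1.52). *Hsp90aa1* was thus higher in the IR cells with more *Hspa1a* and *Hspa1b* UMIs, while in sham the interval held 1. The bins were not split by subcluster, and recruited macrophages made up 53.1% of the IR cells with none.

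*Dnajb1* in IR was at 0.0477 UMIs a cell with none and 0.351 with 5 or more (7.35-fold, interval 4.30 to 12.9), and in sham 2.81-fold apart (1.71 to 4.39). *Hspb1* was 3.65-fold higher in the IR cells with 5 or more and 3.87-fold in sham. *Hsp90ab1* was at 1.002 and 2.03 UMIs a cell in IR (2.02-fold, interval 1.72 to 2.37) and 1.09-fold apart in sham (0.933 to 1.27). *Hspa8* showed the smallest ratio in IR, 1.37-fold (1.22 to 1.54), and *Hspd1* was 1.63-fold apart with an interval that held 1. *Hsph1* rested on 8 and 11 UMIs in IR.

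**Figure D5:**
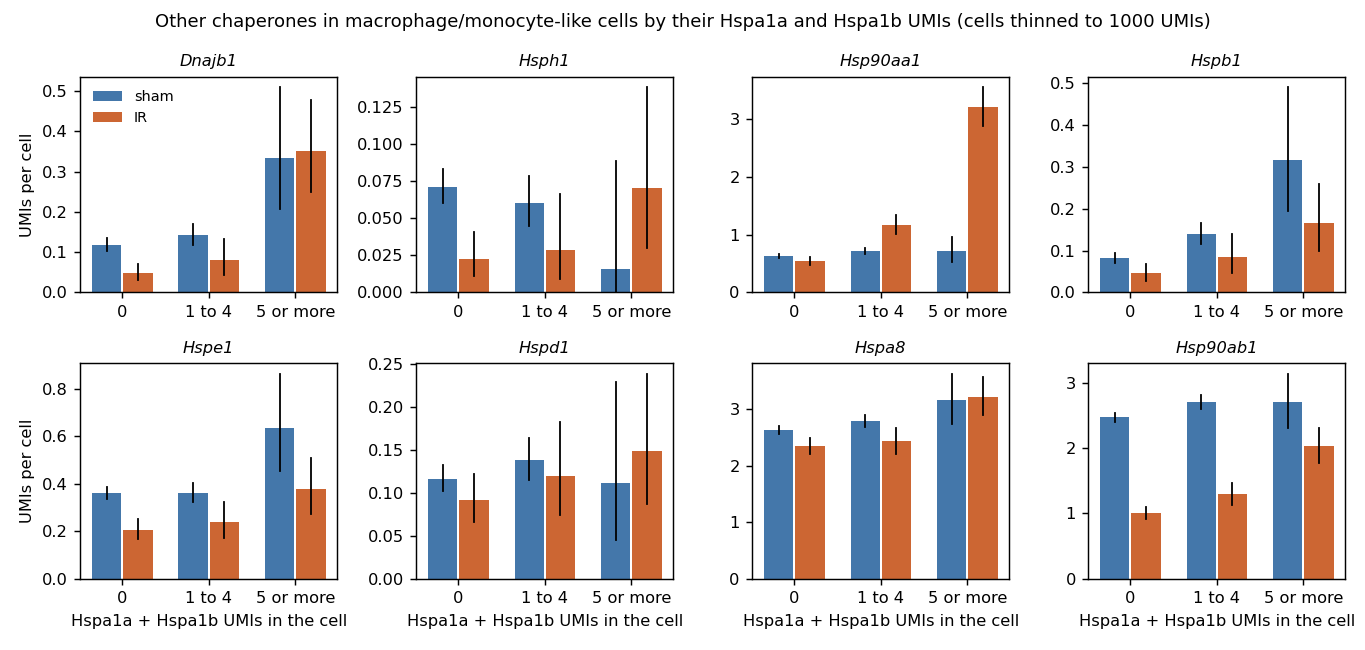
Mean UMIs a cell (y axes) of 8 chaperone genes in macrophage/monocyte-like cells with 0, 1 to 4, or 5 or more Hspa1a and Hspa1b UMIs (x axes), thinned to 1000 UMIs, for sham (blue) and IR (orange), with 95% counting intervals. The Hsp90aa1 bar of IR cells with 5 or more stands at 3.19, and the sham bar beside it at 0.714.

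Depth, quality and subcluster were set beside these bins. In IR, the cells with 5 or more had a median of 6155 UMIs before thinning and 8.14% mitochondrial UMIs, and the cells with none 6621 UMIs and 6.93%. Immediate-early genes summed to 33.1 UMIs a cell with 5 or more and 21.7 with none in IR, and to 34.5 and 28.9 in sham, and their part in the result was not tested. In IR, 92 of the 114 cells with 5 or more (80.7%) were in subcluster 3, which held 34.4% of the IR cells with none. In sham, 46 of the 63 (73.0%) were in the interferon-signature subcluster, which held 27.9% of the sham cells with none.

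Among the listed genes outside the members, *Dnaja1*, a further J-domain partner of HSP70, was 3.77-fold higher in the IR cells with 5 or more than in those with none. *Jun* was 3.98-fold and *Atf3* 2.42-fold higher, whereas *Hspa5* and *Hsp90b1*, the HSP70 and HSP90 of the endoplasmic reticulum (ER), were at 0.794 and 0.577 of the level in cells with none. The immediate-early list was mixed: *Nr4a1* (0.393), *Socs3* (0.685) and *Ier3* (0.721) were lower. *Zfp36* and *Junb* had intervals that included no difference, and the rest of that list was higher. The other ER chaperones with enough UMIs had intervals that included no difference.

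The rest of the chaperone network differed between macrophage/monocyte-like and fibroblast-like cells. Of 12 HSP90 co-chaperones tested in macrophage/monocyte-like cells, 2 were at least 2-fold higher in IR and 5 lower, with a median log2 ratio of −0.71 (all genes: 9.85% higher, 11.1% lower, median −0.00). *Fkbp5*, an immunophilin and known glucocorticoid target, was at 10.0 CPM in sham and 87.5 CPM in IR (log2 ratio 3.12), and *Unc45a* had a log2 ratio of 1.01. The lowest ratios were those of *Stip1* (−1.74), which links HSP70 to HSP90, and *Fkbp4* (−1.69). In fibroblast-like cells 1 of 13 was higher (*Ppid*, 1.21) and 3 were lower, with *Fkbp4* (−1.78) and *Ahsa1* (−1.13) lowest and a median of −0.57 (all genes: 13.2% higher, 18.0% lower, median −0.09).

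In macrophage/monocyte-like cells none of the 7 CCT chaperonin genes, 8 mitochondrial chaperones, 12 other J-domain proteins and 10 other HSP70 and exchange-factor genes tested was past 2-fold (all genes: 9.85% higher, 11.1% lower), with medians of 0.14, 0.04, 0.03 and 0.18. The highest of these was *Hspa9* (0.77), the HSP70 of mitochondria, and *Bag3*, an exchange factor, had 0.62. In fibroblast-like cells *Hspa9* had 1.54, *Hspa4*, a relative of *Hsph1*, 1.46, and *Tcp1*, a CCT subunit, 1.03, and the CCT median was 0.79 over 7 genes, beside −0.09 for all genes. In that class 13.2% of all genes were at least 2-fold higher in IR and 18.0% at least 2-fold lower. Lower ratios of the same lists in fibroblast-like cells are not given here, so the classes are not reported alike. These ratios share the cluster shift described above.

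Of 10 ER chaperones, 1 was at least 2-fold lower in IR in macrophage/monocyte-like cells (median −0.59, background 11.1%) and 5 in fibroblast-like cells (median −0.9998, background 18.0%), and 0 were at least 2-fold higher in either. *Sdf2l1* was lowest in both, at −1.86 and −3.18, followed in fibroblast-like cells by *Pdia4* (−2.28), while *Hspa5* had 0.22 and 0.05. *Hsf1*, which encodes heat-shock factor 1, was at 13.5 CPM in sham and 14.8 CPM in IR in macrophage/monocyte-like cells, and its interval held 0 in both classes. *Hsbp1*, whose product binds heat-shock factor 1, had −0.79 and −1.03. Of 15 immediate-early and dissociation genes, 2 were at least 2-fold higher (background 9.85%) and 2 lower (11.1%) in macrophage/monocyte-like cells (*Ier3* 1.32, *Nr4a1* 1.13, *Fos* −1.04, *Fosb* −1.40), and 0 were higher (13.2%) and 10 lower (18.0%) in fibroblast-like cells (*Fos* −2.02, *Atf3* −1.78).

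Over the 17 groups of class and library with at least 50 cells, *Hspa1a* and *Hspa1b* had the most similar levels to each other (Pearson's r of log2(CPM + 10) of 0.95), and *Hspe1* went with *Hsp90ab1* (0.91) and *Hspd1* (0.90), and *Hspa8* with *Hsp90ab1* (0.86). *Hspa1a* and *Dnajb1* had 0.25. Among 6183 genes with at least 1000 UMIs outside the members, those nearest to the summed *Hspa1a* and *Hspa1b* level were *Stx12* (0.94), *Mgat4b* (0.92), *Vps35* (0.90), *Spred1* (0.90), *Sbf2* (0.89), *Clic4* (0.89), *Luzp1* (0.88) and *Fn1* (0.88). Among those nearest to *Hspa8* and *Hsp90ab1* were *Tuba1b* (0.95), *Wdr83os* (0.94), *St13* (0.94), an HSP70 co-chaperone, *Psma7* (0.93), *Tbca* (0.92), *Sepw1* (0.91) and *Med29* (0.91). The groups include IR cardiomyocyte-like cells (50 cells), a class not compared above and without a sham group among the 17. The groups share 2 libraries and depth, so these values are a description.

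Many IR cells were above the limit of 2500 genes, and their levels were read separately. Such cells were 61.7% of IR and 9.88% of sham macrophage/monocyte-like cells when clustered without the limit, 86.7% and 19.1% of fibroblast-like, and 34.2% and 4.06% of mural-like cells. In IR macrophage/monocyte-like cells *Hspa1a* was at 1382 CPM up to the limit and 865 CPM over it, and in IR mural-like cells at 1386 and 516 CPM. It was higher over the limit in IR fibroblast-like cells, at 329 and 498 CPM, and in IR endothelial-like cells, at 1222 and 1856 CPM. With all these cells, the IR to sham log2 ratio of *Hspa1a* was 1.32 in macrophage/monocyte-like, 1.27 in fibroblast-like, 1.51 in endothelial-like and 0.55 in mural-like cells, and that of *Hspa1b* in mural-like cells was −0.05 with an interval that held 0. *Hspd1* in fibroblast-like cells had a log2 ratio of 1.54 with these cells included. *Hspb1* was at 2484 CPM in the IR mural-like cells over the limit and at 1000.2 CPM in those up to it.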

How the data were processed

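Cells of the left ventricle from sham and IR mice were measured by single-cell RNA-seq. According to the paper and the labels, the authors prepared 10× Genomics 3′ libraries and aligned reads to mm10 with Cell Ranger (3.1.0 in the matrix headers). The deposited values are whole-number UMI counts for each gene and barcode, not normalized, with 58653308 UMIs in the sham and 75033226 in the IR matrix. Barcodes with 200 to 2500 genes and at most 30% mitochondrial UMIs were kept (9777 sham and 4880 IR cells), with genes in at least 5 cells. After scaling to 10000 UMIs a cell and a log transform, the 2000 most variable genes without the members and listed chaperones were reduced to 30 principal components, and a graph of 30 neighbors was clustered (Leiden, resolution 0.8). The software was Python 3.11.15, numpy 2.4.6, scipy 1.17.1, pandas 2.3.3, leidenalg 0.10.2, igraph 0.11.9, matplotlib 3.10.9. Names of clusters rest on 157 markers (3 not in the matrices). The score limits, the naming of monocyte clusters by subset markers and the leaving out of subclusters led by another class were set after the clusters had been seen. Doublets were removed only by the upper gene limit, and by a doublet score in an alternative.

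CPM were computed from the UMIs summed over the cells of a class in a library. Ratios were taken for genes with at least 25 UMIs over both libraries, a 0 was set to 3 UMIs for a bound, and past 2-fold is the fixed rule of size. Exact Poisson intervals (levels, ratios) and Clopper–Pearson intervals (shares) cover counting error only. Shares of cells used cells thinned to 1000 UMIs. No test between sham and IR was possible with 1 library a condition, and the scripts were tested on simulated data. The members, gene lists and named genes (the 2 highest and 2 lowest ratios of each list in macrophage/monocyte-like and fibroblast-like cells, and the 8 genes most like each pair, of which 1 is not reported here) were chosen with earlier results of these data known. Genes of the lists named by their ratio between cells with 5 or more and with no HSP70 UMIs were chosen after their values were seen.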

Additional observations from a re-analysis of the deposited data

Results flagged for a closer look

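*Hsp90aa1* had effects of opposite direction in different classes. Its log2 ratio of IR to sham was highest in neutrophil-like cells, at 0.77, and lowest in NK cell-like cells, at −0.81. The neutrophil-like value was −0.20 when classes were set by each cell's own marker UMIs. Sham and IR neutrophil-like cells also lay mostly in different clusters. The difference between these classes was not tested, since both rest on the same 2 libraries, and in NK cell-like cells the median of all genes was itself at 0.16.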

How the results depend on the processing

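No paired analysis was possible because each condition is 1 matrix whose barcodes name no sample. Of 79 ratios of members, 67 kept their sign under every alternative with a value, and of the 25 past 2-fold all 25 kept their sign and 16 stayed past 2-fold. The *Hspa1a* log2 ratio in macrophage/monocyte-like cells ranged from 1.32 to 2.001 and that of *Hsp90aa1* from 0.28 to 0.82. Counts of members past 2-fold that moved by over 1.5 times were as follows, and the causes were not tested. Without the upper gene limit, members higher in IR were 3 in neutrophil-like, 2 in fibroblast-like, 2 in endothelial-like and 0 in mural-like cells, and members lower were 0 in endothelial-like cells. With classes set by each cell's own marker UMIs, members lower were 0 in macrophage/monocyte-like and 4 in neutrophil-like cells. With the mean of per-cell CPM, members higher were 1 in neutrophil-like, 0 in endothelial-like and 0 in mural-like cells. At a resolution of 1.2, neutrophil-like cells had 1 member higher and 1 lower. By median of ratios, fibroblast-like cells had 1 higher and T cell-like cells 2 lower. T cell-like cells had 0 lower with a mitochondrial limit of 10%, 0 with high doublet scores removed and 0 with at least 100 UMIs, and NK cell-like cells had 1 higher in the latter 2 settings. A call at 1.5-fold, which by construction takes in more genes, gave in neutrophil-like cells 3 higher and 3 lower, in fibroblast-like 3 and 3, in endothelial-like 2 and 2, and also 4 lower in macrophage/monocyte-like, 3 lower in T cell-like, 5 lower in NK cell-like and 2 higher in mural-like cells, with smaller moves to 3 higher in macrophage/monocyte-like, 4 lower in B cell-like and 5 lower in mural-like cells. Classes left with under 50 cells in a library by doublet removal or the mitochondrial limit gave no value. A total without ribosomal protein genes and ratios within clusters were chosen after seeing the data. Depth limited what could be seen in the neutrophil-like class, with 12 *Hspa1a* UMIs in sham, and in the NK cell-like class, with 2 *Hspb1* UMIs in IR.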
